A study of Mus musculus with 10 samples.

Results

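The abdominal aorta of wild-type (WT) mice was described on its own, from the 4 arrays labelled WT among the 10 arrays of the series. These 4 mice, titled Normal mouse N1 to N4 and called WT 1 to WT 4 here, were female C57BL/6 littermates of KCASP1Tg mice without the transgene, aged 4 months (16 weeks), and no treatment is stated for them. In KCASP1Tg mice the keratin 14 promoter drives human caspase-1, which leads to dermatitis, and their 6 arrays were not compared here. Total RNA of each mouse was labelled from the 3' end and put on 1 GeneChip Mouse Genome 430 2.0 array, so that each value below is 1 mouse. The methods give 8 mice for this experiment, whereas the labels give 10 arrays. The labels call the tissue dechorionated, a term that the sources do not explain, and they do not say how much fat or nerve was left around the vessel. All probe sets that map to exactly 1 gene symbol were used, 34945 of 45037 without the control probe sets, and they gave 18193 genes, each read from its brightest probe set.

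The aortic wall has an inner layer of endothelial cells, a middle layer of smooth muscle cells between sheets of elastin, and an outer layer, the adventitia, of fibroblasts and collagen with small vessels and nerve fibres. Around the vessel lies perivascular fat, which in the mouse can hold brown adipocytes, cells that burn lipid for heat in mitochondria uncoupled by Ucp1. Sympathetic neurons, whose cell bodies lie in ganglia beside the abdominal aorta, make noradrenaline, which contracts the vessel through the smooth muscle and drives heat production in brown fat. A whole aorta therefore gives RNA of many cell types, and in such bulk samples fewer cells of a type and less RNA per cell cannot be told apart.

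Signals are MAS5.0 intensities in arbitrary units, with each array scaled to a trimmed mean of 500. A signal of 100 was used as a working level and not as a detection call. Of the 18193 genes, 11029 (60.6%) had a signal of at least 100 in all 4 mice, 2044 in 1 to 3 mice and 5120 in none. Each mouse had between 11810 and 12278 such genes. The counts of list genes at 100 or more in all mice below stand beside this share of 60.6%. The signals rank probe sets rather than transcripts, since each probe set binds its target with its own strength. For the 9010 genes with more than 1 probe set, the probe sets of a gene differed by a median of 2.34 on the log2 scale, against a median range of 0.56 between the 4 mice for the brightest probe set. A percentile below is the place of a gene's mean signal among all 18193 genes and is read as a coarse order.

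The 4 mice were not alike. Across the 13073 genes with a signal of at least 100 in at least 1 mouse, Pearson's r of log2 signals was between 0.88 and 0.95 for pairs among WT 1, WT 2 and WT 3, and between 0.88 and 0.90 for the pairs with WT 4. Of the genes with a signal of at least 100 in all mice, 92 to 192 were at least 2-fold apart in pairs among WT 1, WT 2 and WT 3, and 875 to 1276 in pairs with WT 4. Genes are not independent replicates, and these values describe the arrays only. Genes of heart muscle were high in WT 4, genes of skeletal muscle and of liver in WT 1, and genes of liver and of the adrenal cortex in WT 3, as described below. Of the same 13073 genes, 16.3% were highest in WT 1, 22.6% lowest in WT 2, 17.5% highest in WT 3, 36.7% highest in WT 4 and 35.8% lowest in WT 4, and the counts of list genes highest or lowest in a mouse below stand beside these shares. Values that rest on these arrays are therefore given per mouse. With 1 group of 4 mice no comparison between groups was made or tested.

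The 20 brightest genes included genes of fat, of lipid synthesis and of mitochondria, and genes that all cells use. The brightest was ND5, a mitochondrially encoded subunit of complex I, at 54137, 55957, 55161 and 63117 in WT 1 to WT 4. Fabp4, the fatty acid binding protein of adipocytes, read 49681, 50059.7, 49962 and 56363. Scd1, which desaturates stearate, read 50149.9, 44649, 46276 and 56338. These signals lay close together in all mice, with a spread (SD of log2 signal over the 4 mice) of 0.10 for ND5, 0.09 for Fabp4 and 0.15 for Scd1. Car3, a carbonic anhydrase that is abundant in adipocytes, was next at 49994, 49082, 45338 and 50988. Acta2, the actin of smooth muscle, was the eighth brightest gene of all and the one gene of the contractile smooth muscle list among the 20. Lpl, which releases fatty acids from lipoproteins, Fasn, the fatty acid synthase, Thrsp, a regulator of lipid synthesis, Tkt of the pentose phosphate pathway and Adipoq were among the 20 brightest too. The respiratory chain genes Cox6a1 and Uqcrb were in the same group. The others were Malat1, a nuclear non-coding RNA, Tpt1, Eef1a1, an elongation factor of translation, Actb, Gsn, Rps29, Fth1 of the ferritin heavy chain and Tmsb4x, a thymosin that binds actin. All 20 had a mean signal of at least 30691 and a spread of at most 0.46.

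Smooth muscle genes were bright in all 4 mice, and the leading markers were even. All 19 genes of the contractile smooth muscle list had a signal of at least 100 in every mouse, beside 60.6% of all genes, and the median percentile of the list was 97.4. Acta2 read 35369, 37912, 36738 and 41902, at the 100.0th percentile. Myh11, the smooth muscle myosin heavy chain and the most specific marker of the differentiated cell, read 10099.6, 11534, 11225 and 10764 (mean 10906 ± 623, SD, n = 4), at the 98.6th percentile. The highest mouse was 1.18 times the lowest for Acta2 and 1.14 times for Myh11. Tagln, an actin-binding protein also called SM22, read 18288, 20499, 18670.5 and 19235, and Myl9, the regulatory light chain of smooth muscle myosin, read 18049.8, 20791, 18989 and 22686. The choice of probe set matters for Acta2 and for Myh11. The bright probe set of Acta2 is of a type whose probes can match more than 1 transcript. The 2 other probe sets of Acta2 had mean signals of 1091 and 528. The other probe set of Myh11 had a mean signal of 300 and a spread of 0.30. Myocd, the coactivator that drives the contractile genes, was modest at 374, 421, 359 and 528. Pln, which restrains the calcium pump of the sarcoplasmic reticulum in smooth and heart muscle, was even in WT 1 to WT 3 at 270.4 to 317 and high in WT 4 at 3503. WT 4 was the highest mouse for 12 of the 19 genes, among them Itga8, an integrin chain of smooth muscle (5708, 8717, 5989 and 12928), and Tpm1, a tropomyosin (6295, 6688, 5794 and 11078). The spread of Pln was the highest of this list (1.81) and moved with the heart muscle genes of WT 4. The part that heart muscle had in the other high values of WT 4 was not tested. The median spread of the list was 0.21 with WT 4 and 0.13 without it.

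**Figure D1:**
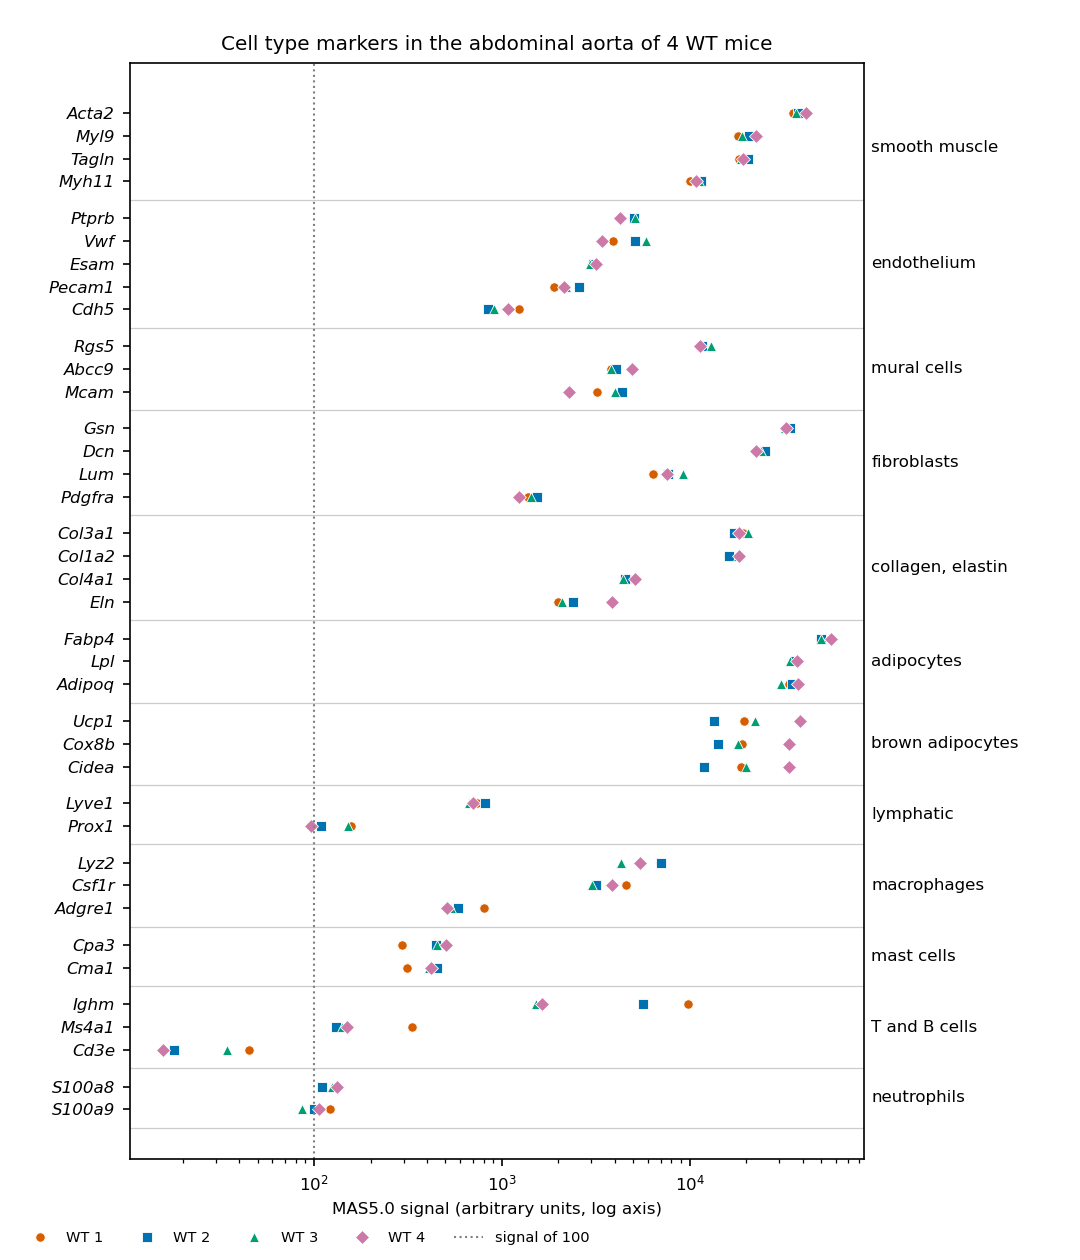
MAS5.0 signal (log axis, arbitrary units) of markers grouped by cell type, 1 point per mouse. The dotted line marks a signal of 100. The plotted smooth muscle, fibroblast and adipocyte markers had the 4 mice close together, whereas Ucp1, Cox8b and Cidea spread out with WT 4 highest and WT 2 lowest, and Cd3e stayed below 100 in all mice.

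Many contractile genes carry a short promoter element, the CArG box, that binds serum response factor. The box is CC, 6 bases of A or T, and GG, a pattern that reads the same on both strands. Of the 19 genes of the contractile list, 15 had a promoter window in the RefSeq table (250 bases before to 50 after the start, GRCm38.p6), and 1 of them, Myl9, held an exact box, beside 1.81% of all 27025 genes with a window. The stretch around it is shown because it is the one match, at chr2:156775268-156775347 on the plus strand, with the box in capitals:
Myl9: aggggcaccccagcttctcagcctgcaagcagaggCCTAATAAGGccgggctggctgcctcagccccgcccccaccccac
For the other 14 genes only the absence of these exact letters in this window was seen, and nothing about the factor follows from it.

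Endothelial genes gave intermediate signals, and their list mean was among the most even of all lists. All 18 endothelial genes had a signal of at least 100 in every mouse, the median percentile was 84.3, and the mean log2 signal of the list was 10.57, 10.57, 10.61 and 10.55 in WT 1 to WT 4. Pecam1, the junction protein that defines the endothelium, read 1886, 2582, 2207 and 2148, at the 89.0th percentile. Cdh5, the cadherin of endothelial junctions, read 1239.6, 846, 913 and 1077. WT 2 was thus the highest mouse for Pecam1 and the lowest for Cdh5. Ptprb, a phosphatase of the endothelial surface, was the brightest of the list at 5004, 5033, 5144 and 4267. Vwf, the clotting protein stored in endothelial granules, read 3903, 5106, 5866 and 3396 and was the most variable of the 3 brightest (spread 0.36). The arterial list had a median percentile of 51.9, and 6 of its 7 genes had a signal of at least 100 in all mice, beside 60.6% of all genes. Its 3 brightest were Sox17, a transcription factor of arterial identity, at 1337, 1266, 997 and 869, Efnb2, an arterial ligand, at 1121, 911, 969 and 1146 and the connexin gene Gja4 at 757, 616, 625 and 559. Another connexin gene of the list stayed below 100 in every mouse (5.09, 61.7, 13.2 and 18.5). The lymphatic list had a median percentile of 68.8, and 4 of the 5 genes measured had a signal of at least 100 in all mice, beside the same 60.6%. Prox1, which specifies lymphatic cells, read 158, 109, 152 and 96.1 and Lyve1 737, 817, 669.9 and 706. Mmrn1 read 1016, 1206, 1054 and 446, with WT 4 below the other mice. Rgs5, which marks pericytes and mural cells of small vessels, was brighter at 11216, 11668, 13038 and 11376. Abcc9, a subunit of the mural potassium channel, read 3794, 4052, 3804 and 4937, and Mcam 3223, 4378, 4011 and 2268.

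Collagen genes had the lowest median spread of the vessel wall lists, and elastic fibre genes varied more. Dcn, a proteoglycan that binds collagen, read 23636, 25146, 24083 and 22584 (spread 0.06) at the 99.8th percentile. The other probe set of Dcn had a mean signal of 305 and a spread of 0.50. Gsn, which severs actin filaments, read 33304, 34133, 32047 and 32496 and Lum, a related proteoglycan, 6383, 7679.8, 9236 and 7583. Pdgfra, the growth factor receptor that marks fibroblasts, read 1372, 1539.8, 1424 and 1228. All 14 collagen genes had a signal of at least 100 in all mice, with a median percentile of 93.6 and a median spread of 0.10, against a median of 0.21 over all genes above that level. Col3a1 read 19152, 17221, 20455 and 18428 and Col1a2 15952, 16288, 18082 and 18253. Col1a1, whose chain pairs with that of Col1a2 in type I collagen, read only 870.3, 898, 1201 and 1080.0, and its other probe set had a similar mean of 994. The elastic fibre genes were less even, with a median spread of 0.27 with WT 4 and 0.13 without it. The collagen list had 0.10 with and without WT 4. Eln, the elastin gene, read 1990.2, 2381, 2091 and 3869.9, and Fbln5, which helps elastin assemble, 3171, 3639.9, 3568 and 4846. All 8 elastic fibre genes measured were higher in WT 4 than in WT 1, by a median of 0.58 on the log2 scale, and Mfap4, a microfibril protein, had the largest step, from 282 to 439 in the other mice to 1597. WT 4 also had high signals of heart muscle genes, and the part of that tissue in these values was not tested. Fbn1 and Efemp2 of the elastic fibre list were not analysed here.

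The receptors and enzymes through which a vessel answers its surroundings were mixed. 9 of the 11 measured had a signal of at least 100 in all mice, beside 60.6% of all genes. Ptgis, which makes prostacyclin, a dilator, read 3224, 3745, 2753 and 5405. Gucy1a1, a subunit of the nitric oxide receptor, read 2838, 3956, 3983 and 2241. Agtr1a, the main angiotensin II receptor of the vessel, read 2288, 3344, 2969.7 and 1078, and WT 4 was below the other 3 mice in both receptors.

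Fat genes were as bright as those of smooth muscle. Adipoq, the adiponectin gene and a marker of mature adipocytes, read 33705, 35284, 30703 and 37705 (mean 34349 ± 2935, SD, n = 4; percentile 99.9), and Lpl 37025, 36491, 34153 and 37247. All 13 measured adipocyte genes had a signal of at least 100 in all mice, with a median percentile of 98.9 against 97.4 for the contractile list. The leading markers were even between mice (spread 0.12 for Adipoq, 0.06 for Lpl). Over the whole list the median spread was 0.27, and WT 4 was the highest mouse for 9 of the 13 genes. The widest were Slc2a4, the insulin-regulated glucose transporter (3605, 2667, 3823 and 7403), and Lipe, the hormone-sensitive lipase (4245, 4730.2, 4246 and 9777). WT 4 also had high signals of heart muscle genes, given below, and the part of that tissue in these values was not tested. Lep, the leptin gene, read only 164, 386, 194 and 264.

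Brown fat genes were bright too, but they differed between mice. Ucp1 read 19589.6, 13546, 22356 and 38829, Cidea, a lipid droplet protein, 18706, 11875, 19968 and 33889.9, and Cox8b, a muscle and brown fat subunit of cytochrome c oxidase, 18900.2, 14166, 18198 and 33992. The order WT 4 above WT 3 and WT 1, with WT 2 lowest, held for Ucp1 and Cidea, and WT 4 was the highest mouse for 9 of the 12 genes measured. All 12 were higher in WT 4 than in WT 2, by a median of 2.86-fold (1.16 to 7.29). Fabp3, a fatty acid binding protein of heart as well as of brown fat, read 3854, 3998, 3787 and 14089.6. Dio2, which activates thyroid hormone, read 1961, 1407, 3018 and 1626, and Ppargc1a, the coactivator of mitochondrial genes, 1005, 752, 2775 and 1656, and both were highest in WT 3 instead. Zic1, a transcription factor of classical brown fat depots such as that between the shoulder blades, was near the bottom in every mouse (7.17 to 14.5). Lipid synthesis and respiration followed the same mice. WT 2 was the lowest mouse for 12 of 13 lipid synthesis genes, with Fasn at 36379, 22214, 35039 and 48381 and Thrsp at 34149, 24918, 32546 and 46237, and WT 4 was the highest for 75 of 80 respiratory chain genes, with Cox5b at 26894, 22967, 28065 and 41380.1. WT 4 also had high signals of the heart muscle genes given below, and heart muscle is rich in respiratory chain genes, so the part that each tissue had in these values of WT 4 was not tested. Among WT 1, WT 2 and WT 3 alone, the list means of brown fat genes still covered 0.81 on the log2 scale, against 0.19 for adipocyte genes in general.

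Immune cell lists covered a wide range, with a median percentile of 93.4 for antigen presentation genes, 66.04 for macrophages, 40.9 for B cells and plasma cells, 30.3 for T cells and 26.3 for neutrophils. 13 of the 16 macrophage genes had a signal of at least 100 in all mice, beside 60.6% of all genes. Lyz2, the lysozyme of myeloid cells, read 6986, 7035, 4318 and 5440.3, Csf1r, the receptor that keeps macrophages alive, 4569.6, 3185, 3024 and 3854, and C1qa, a complement subunit made by tissue macrophages, 2364, 1555, 1598 and 2177. Adgre1, the F4/80 antigen, read 799, 583, 534 and 508. The mast cell proteases Cpa3 and Cma1 were seen at 294, 446, 449 and 504 and at 313, 451, 408 and 420.4, in each case lowest in WT 1. They were the brightest of the mast cell list, whose median percentile was 34.4. Of its 7 genes 4 reached 100 in all mice, beside 60.6% of all genes, and 3 stayed below 100 in every mouse. The T cell chain Cd3e was below 100 in all mice (15.7 to 45.1), and 1 of 7 T cell genes measured reached 100 in all of them. Of the neutrophil genes 1 of 10 did, again beside 60.6% of all genes. B cell and antibody genes differed between mice. Ighm, the heavy chain of IgM, read 9791, 5673, 1526 and 1631, Jchain, the joining chain of IgM and IgA, 1373, 1262, 259 and 265, and Ms4a1, the CD20 antigen, 334, 131, 141 and 151. WT 1 was the highest mouse for all 6 genes of this list. Cxcl13, the chemokine of B cell follicles, followed them at 1205, 1169.6, 369 and 246, and Glycam1, a mucin of lymph node venules, was above 100 in WT 1 alone (127, 3.05, 4.67 and 7.196). The presentation genes Cd74 and H2-Aa read 4246, 3469, 2993 and 2914 and 6682, 5629, 5272 and 4529, and both were highest in WT 1 and lowest in WT 4. Of blood cells, the haemoglobin gene Hba-a1 was below 100 in all mice (4.71 to 43.3) on the probe set read for it. Only 5 of the 9 red cell genes of the list were analysed, and Alas2 among them read 810.2, 355, 511 and 284. Whether haemoglobin RNA or blood was absent cannot be told from this. Pf4, a platelet chemokine that macrophages can also express, read 2149, 2086, 1915 and 1992.

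The genes of sympathetic neurons were bright in 3 mice and lower in WT 4. Slc6a2, the noradrenaline transporter, read 21157, 24228, 23399.6 and 6079.6, which placed its mean signal at the 99.5th percentile. Th, the first enzyme of catecholamine synthesis, read 7289, 10310.3, 9835 and 1626, and Prph, the peripherin filament of peripheral neurons, 8854, 11407, 10539.7 and 1799. WT 4 lay below the mean of the other mice by a log2 difference of -1.91 for Slc6a2, -2.48 for Th and -2.50 for Prph. WT 4 was the lowest mouse for 9 of the 10 genes measured, and its list mean lay -2.12 from the mean of the others on the log2 scale. The exception was Pnmt, which turns noradrenaline into adrenaline and so marks chromaffin cells of the adrenal medulla, at 253, 247, 174 and 213. Myelin and Schwann cell genes moved with them. Mbp, the myelin basic protein, read 9457, 9816, 8818 and 3373, Pmp22, a protein of peripheral myelin, 8008, 9536, 9355 and 5692, and Sox10, the transcription factor of the lineage, 891, 809.9, 913 and 215. S100b, which adipocytes express as well, did not, at 968, 1067, 1079.6 and 1224. Among genes with a signal of at least 100 in WT 4 or in all the others, those farthest below in WT 4 were Tm4sf4 (755, 772, 812 and 21.3), Lin7b (190.3, 198, 149 and 5.35), Jph3 (279, 432, 359.9 and 12.4), Ttc9b (193, 227, 188 and 7.53) and Snph (127, 129, 134 and 5.48). Of these, Snph, which anchors mitochondria in axons, Jph3, a junction protein of neurons, and Lin7b, a synaptic scaffold, are genes of neurons. Interferon genes were lower in WT 4 as well. Beside 35.8% of genes in general, it was the lowest mouse for all 10 genes measured, with Ifit3 at 1298, 1949.5, 1830.1 and 829.5 and Cxcl10 at 264, 233, 254 and 25.4. Platelet genes were lower there for 6 of 7, Ppbp for one at 1497, 1071, 1240.2 and 366.

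Hox genes, which give cells their position along the body axis, reached 100 mainly in the middle groups. They lie in 4 clusters, a to d, and are numbered by paralogue group from 1, used from the hindbrain on, to 13, used at the tail end. Of 23 Hox genes measured in groups 1 to 9, 15 had a signal of at least 100 in all 4 mice, and of 10 genes in groups 10 to 13 only 1 did, beside 60.6% of all genes. That gene was Hoxa10 at 251, 440.0, 281 and 112. The brightest were Hoxc8 at 1439, 1477, 1549.8 and 1031, Hoxa5 at 1159.7, 934, 980.1 and 1497, Hoxa9 at 1263, 1099.7, 871 and 550.4, Hoxc4 at 627, 708, 726 and 529.8 and Hoxd8 at 619, 593, 694 and 529.9. Hoxa9 and Hoxa10 were lowest in WT 4 and Hoxa5 was highest there. The mean log2 signal of all 33 Hox genes was nevertheless within 0.07 between the 4 mice. Groups 11, 12 and 13 held no gene that reached 100 in all mice, and the highest mean there was that of Hoxa11 at 73.3.

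**Figure D2:**
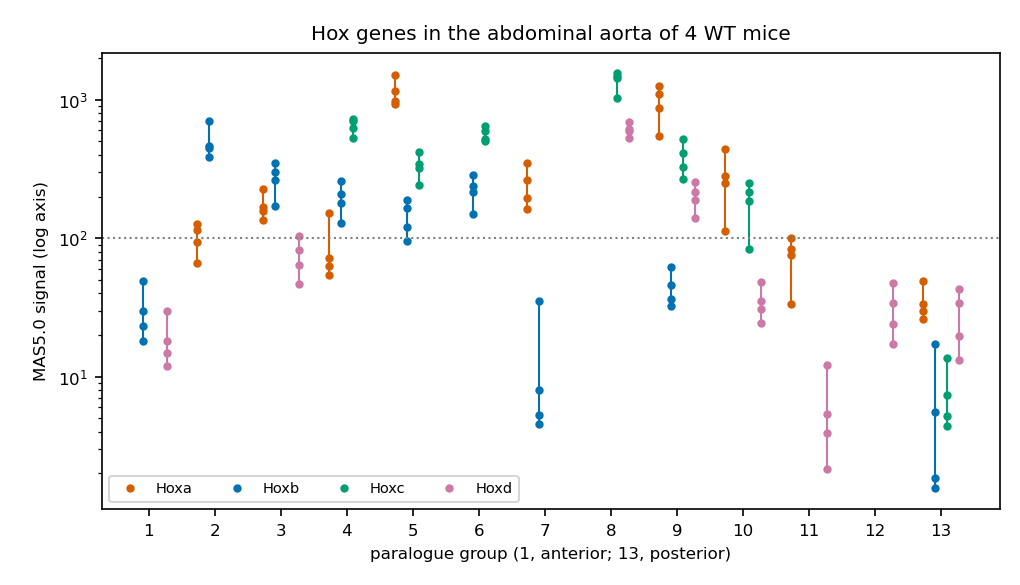
MAS5.0 signal (log axis) of each Hox gene by paralogue group, 1 point per mouse, with a line from the lowest to the highest mouse and the colour giving the cluster. Signals above the dotted line at 100 run from group 2 to group 10, with the brightest genes in groups 5, 8 and 9, and all 7 genes of groups 11 to 13 sit at or below the line apart from 1 mouse for Hoxa11.

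Of the 16 measured genes that the study followed in diseased mice, 8 had a signal of at least 100 in all 4 WT mice, beside 60.6% of all genes. S100a8 and S100a9, the calgranulins of neutrophils, read 131, 110.4, 124 and 132 and 122, 99.9, 85.9 and 106. Camp, the cathelicidin peptide, read 10.1, 56.5, 11.05 and 9.01, Chil3, a chitinase-like protein, 46.5, 7.17, 37.98 and 35.2, and Apol11b 52.2, 23.1, 54.5 and 37.5. The last 3 stayed below 100 in every mouse. Of the cytokines, Tgfb1 read 236, 249, 219.6 and 198, Il1b 117, 101, 88.3 and 66.9, Tnf 87.97, 32.96, 7.33 and 41.3, Ifng 3.702, 4.24, 9.16 and 10.5 and Il17a 29.2, 33.6, 44.7 and 49.2. Of these cytokines only Tgfb1 was above 100 in all mice, as was Il18, given below, and the mean signals of Camp, Chil3 and Ifng lay near or below 32, where the median spread of all genes was 1.09. The receptors were brighter than their ligands on their own probe sets, with Tnfrsf1a at 2290.2, 2077, 2102 and 2619, Il1r1 at 420.1, 443, 450.1 and 508, Il17ra at 197, 169, 172 and 116 and Il17rc at 335, 374, 390.4 and 410.4, although levels of different probe sets are not abundances. Casp1, the caspase that matures interleukins 1β and 18, read 231, 258, 361 and 315 and Il18 565, 638, 416 and 346.

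All 4 mice read as females, as the methods state. Xist, which silences an X chromosome in female cells, read 15079, 13695, 12810.2 and 15442, and the Y-linked Kdm5d, Uty and Eif2s3y were below 100 in every mouse (highest value 41.6, for Uty). Cell division genes were low, with Mki67 at 141, 97.6, 90.3 and 59.9, and 2 of the 13 measured reached 100 in all mice, beside 60.6% of all genes. Clock genes had a median spread of 0.25, with Dbp, a gene whose level follows the time of day, at 5201, 4491, 5558 and 4081 and Nr1d2, a repressor of the clock, at 6372, 6451, 6778 and 5119, and Npas2, a partner of the clock activator, the most variable at 75.9, 55.8, 91.7 and 250.3. Genes that rise within minutes of handling tissue were present, with Egr1 at 3659, 2172, 1711 and 2630.4, Dusp1 at 4377, 3402, 3880.1 and 4795, Nr4a1 at 2649, 1798, 5029 and 2067 and Fos at 1129, 586, 482 and 725, and Nr4a1 was highest in WT 3 and Egr1 and Fos in WT 1.

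The spread between mice was small for most genes. Over the 11029 genes with a signal of at least 100 in all mice, the median SD of log2 signal was 0.21, which is a factor of 1.16, and the 10th and 90th percentiles of the SD were 0.08 and 0.53. Without WT 4 the median was 0.14. The spread depended on the signal, with a median of 1.09 for mean signals below 32 and of 0.19 for those from 2048 to 8192. The evenest genes were Cxxc5, a zinc finger protein (1016, 1023, 1019 and 1006), Rps24 of the small ribosomal subunit (17918, 18063, 18072 and 17764), Ssu72, a phosphatase of RNA polymerase II (2203, 2197, 2239.7 and 2205), Spidr, Mapk1ip1, Hdac3, a histone deacetylase, Strn4 and Cul2, a scaffold of ubiquitin ligases. Each had a spread of at most 0.02, and ribosomal protein genes as a list had a median of 0.08. The 5 markers Myh11, Acta2, Adipoq, Pecam1 and Dcn had spreads between 0.06 and 0.19 on their brightest probe sets. Of the usual reference genes, B2m read 26368, 25529.5, 25745 and 24469.6 and Actb 33468, 32039, 31550.5 and 36832.

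**Figure D3:**
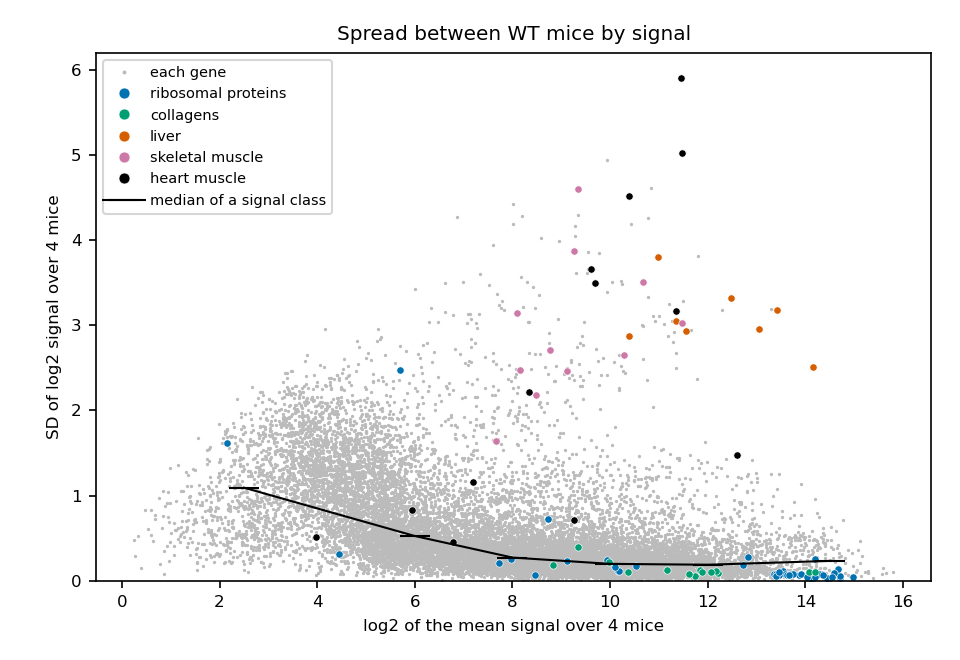
SD of log2 signal over the 4 mice against the log2 of the mean signal, 1 grey point per gene, with 5 gene lists in colour and the median of each signal class as a black line. Most genes above a log2 mean of 7 lie below 0.5. Collagen genes and most ribosomal protein genes lie close to the bottom, with 2 ribosomal protein genes above 1. Liver, skeletal muscle and most heart muscle genes stand far above most genes of the same signal.

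A minority of genes differed widely, and the widest differences were in genes of liver, skeletal muscle and heart muscle. Of the 13073 genes with a signal of at least 100 in at least 1 mouse, 908 (6.95%) had a spread over 1, and 484 of the same 13073 had one over the 3 other mice when WT 4 was left out. Counted by mouse, 720 genes (5.51%) had 1 mouse at least 4-fold from the mean of the other 3. WT 1 lay above for 308 genes and below for 1, WT 2 for 12 and 69, WT 3 for 75 and 5, and WT 4 for 75 and 321. WT 1 thus stood apart mainly by higher genes and WT 4 mainly by lower ones. Of the 308 genes high in WT 1, 201 were also at least 2-fold higher in WT 3 than in WT 2 and WT 4. For 20 of the 308, WT 4 was at least 2-fold above WT 2 and WT 3. The same shares over all genes were not counted, so these 2 counts only describe the 308 genes.

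**Figure D4:**
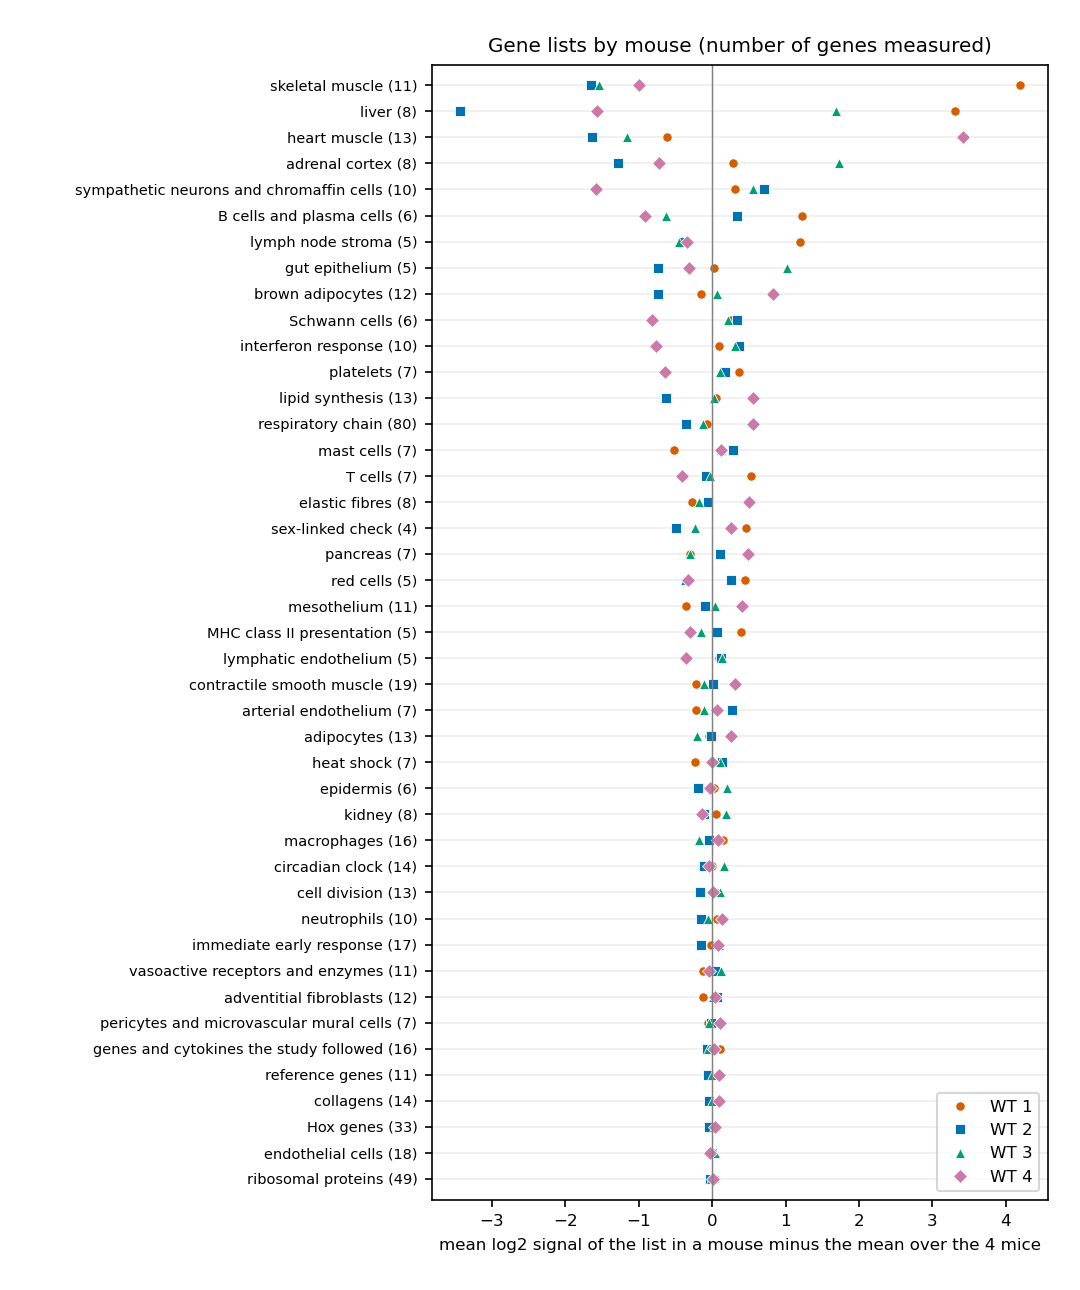
Mean log2 signal of each gene list in a mouse minus the mean over the 4 mice, with the lists ordered by their largest deviation and the number of genes measured in brackets. Skeletal muscle stands out in WT 1, heart muscle in WT 4, liver in WT 1 and WT 3, and the sympathetic list falls away in WT 4 alone, whereas the points of the endothelial, collagen, Hox and ribosomal protein lists stay close to 0 for all mice.

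Among the lists, liver genes covered the widest range. Alb, the serum albumin, read 43054, 998, 25226 and 3695. Ttr, the carrier of thyroid hormone and retinol, read 28504, 246, 14134 and 1179, and Apoa2, an apolipoprotein of HDL, 24859, 256, 7756 and 962. All 8 liver genes had the same order, WT 1 above WT 3, WT 4 and then WT 2, and the list means were 13.70, 6.96, 12.09 and 8.83 on the log2 scale. The ratio of WT 1 to WT 3 was similar from gene to gene, with a median of 3.37-fold and a range of 1.71 to 4.29. Even in WT 2, the mouse with the least, Alb had a signal of 998. Genes outside the list showed the same pattern. Among genes with a signal of at least 100 in at least 2 mice, 9 of the 12 most variable had this order of mice, and the others were the striated muscle genes Myom2, Ttn and Smpx. Genes high in 1 mouse alone, such as Myh6 with a spread of 5.91, are not in that count. Those with the order of the liver genes were the drug-metabolising enzymes Cyp2d26 (3333, 1.96, 592 and 12.1), Cyp3a25 (2195, 5.92, 382 and 6.26) and Ugt2a3, Akr1c6, Rdh7 and Sult1d1, the clotting factor subunit F13b, the complement regulator C4bp and the urea cycle enzyme Otc (1636, 2.62, 303 and 40.9). Among genes with a signal of at least 100 in WT 2 or in all the others, those farthest below in WT 2 were Hamp2, Mbl2, a lectin of complement (2739, 5.73, 669 and 102), Fgb, a fibrinogen chain (6422, 15.3, 1498 and 163), Fabp1, the fatty acid binding protein of liver (10259, 41.9, 3941 and 132), and Ttr, so that this mouse read lowest of the 4 in all of them.

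Many liver genes carry a promoter site for HNF1, a transcription factor of hepatocytes. Because the liver genes moved together, their promoter windows were searched for the HNF1 motif GTTAATNATTAAC, on both strands and with up to 2 mismatches, a search chosen after the values were seen. Of the 7 liver genes with a window in the RefSeq table, 3 held a match (Alb, Fga and Fgb), beside 1.58% of all 27025 genes. The matches lie within 50 bases before the start of transcription, and the stretches around them are shown 5′ to 3′ along the gene, with the match in capitals, at chr5:90460803-90460885 (plus strand), chr3:83026068-83026150 (plus strand) and chr3:83049852-83049934 (minus strand) of GRCm38.p6:
Alb: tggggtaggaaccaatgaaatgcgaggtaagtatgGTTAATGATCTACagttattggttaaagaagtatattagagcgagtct
Fga: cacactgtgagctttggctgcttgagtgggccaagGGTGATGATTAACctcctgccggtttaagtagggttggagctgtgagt
Fgb: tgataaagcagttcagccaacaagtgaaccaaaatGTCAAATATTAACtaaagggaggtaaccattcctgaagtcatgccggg
Each of the 3 matches had 2 mismatches. A match is a description of letters and was not tested as a site. The genes were picked by hand as genes of liver, so the matches describe that choice. Why these genes moved together between mice was not tested.

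**Figure D5:**
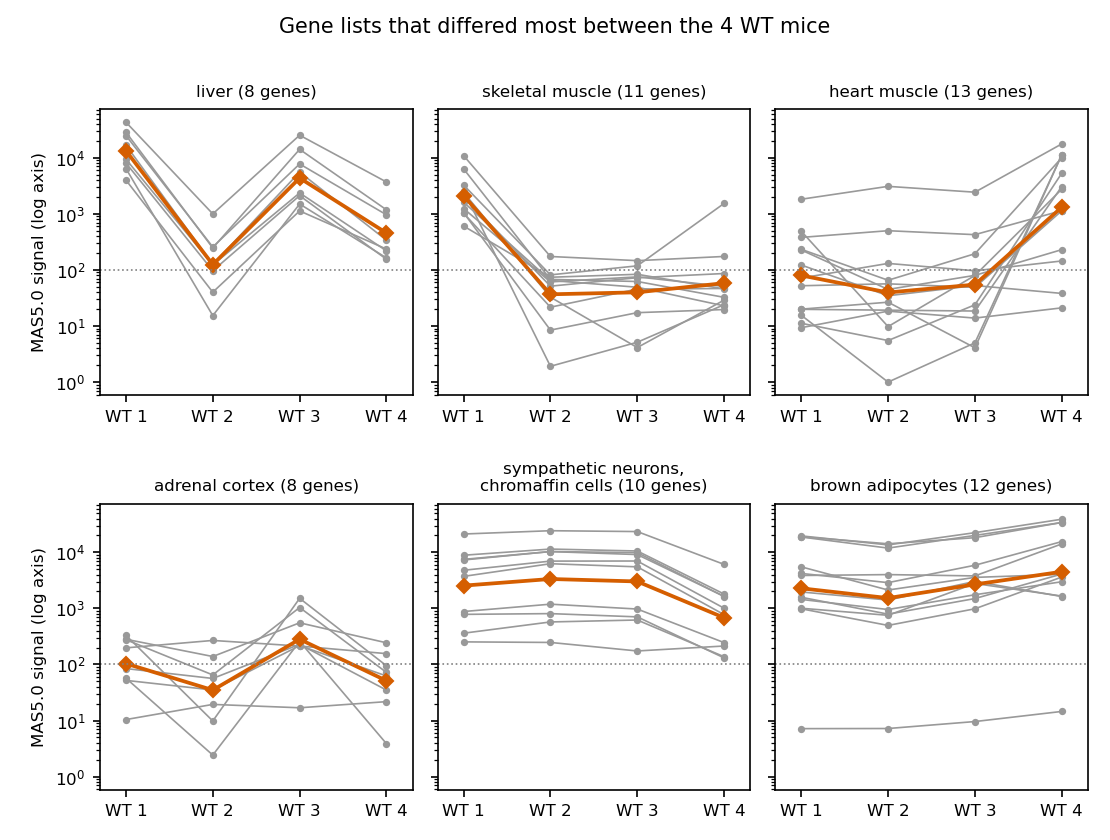
MAS5.0 signal (log axis) of each gene (grey) and the mean of the list (orange) in the 4 mice, for 6 lists, with the dotted line at a signal of 100. Liver genes keep 1 order of the mice, skeletal muscle genes rise in WT 1, most heart muscle genes in WT 4 and adrenal cortex genes in WT 3, and sympathetic genes fall in WT 4.

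Skeletal muscle genes were high in WT 1. Acta1, the actin of skeletal muscle, read 10916, 174, 146 and 174, Myh1, a fast myosin heavy chain, 6332, 67.7, 62.2 and 32.5, and the fast troponin Tnnt3 2576, 1.91, 5.14 and 23.99. Tnni2 and Tnnc2, the other fast troponin subunits, read 2404, 32.7, 4.13 and 28.95 and 4656, 45.3, 59.1 and 21.2. WT 1 was the highest mouse for all 11 genes, its list mean was 5.59 above the mean of the others on the log2 scale, and in the other mice all genes but Acta1 and Ckm stayed below 100. Ckm, the muscle creatine kinase, which heart muscle also expresses, read 3264, 81.6, 118 and 1535 and was second highest in WT 4.

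Heart muscle genes were high in WT 4. Myh6, the myosin heavy chain of the atria and of the adult mouse ventricle, read 15.6, 0.859, 5.004 and 11232. Myl7, the light chain of the atria, read 19.97, 26.6, 4.09 and 11287, and Nppa, the atrial natriuretic peptide, 19.8, 19.2, 18.5 and 3059.7. Sln, which restrains the calcium pump in the atria, read 20.3, 5.72, 22.4 and 7294, and Tnni3, the cardiac troponin I, 11.2, 5.505, 23.9 and 5292. These 5 genes read at most 26.6 in the other mice and at least 3059.7 in WT 4. By contrast, Myl2, the light chain of the ventricles, was not raised in WT 4 (122, 34.6, 52.7 and 38.1), nor was Myh7 (9.33, 18.4, 13.8 and 21.1). Myl4, another atrial light chain, read 173, 230.3, 239 and 12372, and Actc1, the cardiac actin, 1821, 3089.8, 2431 and 17645, so that both had a signal above 100 in mice in which the 5 genes above were near the bottom. Ttn, Myom2, Smpx and Mb, genes of striated muscle in general, were high in both WT 1 and WT 4, with Mb, the myoglobin gene, at 2002, 67.9, 152 and 9247 and Ttn, the giant spring protein, at 2433, 25.5, 16.4 and 4501.

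Adrenal cortex genes were high in WT 3. Hsd3b1, a step in the synthesis of all steroids, read 331, 9.82, 1509.6 and 94.7, Cyp11b1, which makes corticosterone, 276, 64.9, 1035 and 72.1, and Cyp11a1, which starts the pathway from cholesterol, 56.9, 2.42, 257 and 3.86. WT 3 was the highest mouse for 6 of 8 genes, and WT 1 was second for these 3. Pnmt of the adrenal medulla was not raised in WT 3. Genes of other abdominal organs were low. None of the kidney genes reached 100 in all mice, 7 of 8 stayed below 100 in each of them, and Umod of the kidney tubule read 15.6, 16.2, 25.9 and 29.5. Of the pancreas genes 6 of 7 stayed below 100 in each mouse too, beside 28.1% of all genes. Mesothelium, the lining of the abdominal cavity, was seen at a low level, with Upk3b at 255, 591, 460.2 and 1074 and Msln at 70.8, 152, 142 and 254, highest in WT 4 for 7 of 11 genes. Krt5, a keratin of the epidermis, stayed below 100 (19.2 to 83.4).

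Single genes also set mice apart. WT 2 had an antibody light chain gene, Igkv15-103, at 535 where the others had 4.603 to 11.3, and the IgG heavy chain Ighg3 read 2541, 3826, 111 and 469. Vip, a neuropeptide that widens vessels, was highest in WT 2 too (32.3, 403, 128 and 50.02). Under the same limit, the genes farthest below the others in WT 1 were Myl4, given above, and Ankrd1, a gene of striated muscle (82.5, 127, 107 and 1921), both highest in WT 4, followed by Myrf (39.7, 154, 161 and 103), a transcription factor of myelin in the brain, Eml2 (83.1, 439.7, 164 and 318) and Optc (62.7, 187, 189 and 233). In WT 3, Tmem144 was below the other mice (103, 105, 20.1 and 134).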

How the data were processed

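Abdominal aorta RNA of each mouse was read on its own GeneChip Mouse Genome 430 2.0 array, and the 4 arrays labelled WT were used. The deposited signal intensity values are linear and come from MAS5.0, which the authors ran with background and mismatch correction and with global scaling to a target of 500. This was checked: with the lowest and highest 2% of probe sets trimmed, every array averaged 500. Values are thus relative to the whole signal of an array. The number of arrays limits the precision.

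The table holds 45101 probe sets, and 64 control probe sets were left out. Of the others, 34945 have 1 gene symbol, 932 several and 9160 none in the platform annotation. By gene identifier 34741 were matched to a current gene table (GRCm38.p6), and 204 kept the symbol of the platform. A gene was read from its probe set with the highest mean over the WT arrays. Signals were floored at 1 before taking log2. The spread is the SD of log2 signal. A mouse was counted as apart at 4-fold from the mean of the other 3 (log2), if its own signal (above) or all others (below) reached 100. A single high or low value was also marked where its gap to the nearest other value, divided by the range of the 4, was above Dixon's critical value of 0.829.

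Gene lists of cell types, tissues and functions were written by hand, and ribosomal, respiratory chain and Hox genes were taken by name. The group, its markers and the lists were chosen with earlier results of these data known. Named genes are the 5 markers, the defining and up to 3 brightest genes of each list, all genes the study followed, the 20 brightest, the 12 most variable (of genes at 100 or more in at least 2 mice), the 8 least variable (in all 4), up to 5 genes above and 5 below in each mouse (of genes at 100 or more in it or in all others), and Hox genes. Chosen after their values were seen were Myocd, Pln, Mfap4, Col1a1, Lep, Fabp3, Dio2, Ppargc1a, Zic1, Pnmt, Sox10, S100b, Cxcl10, Myl2, Myh7, Fga, Itga8, Tpm1, Lipe, Slc2a4, Npas2 and the HNF1 search. List genes with no probe set of their own symbol were not analysed here. Alternatives covered the signal level (50, 200), the floor (16), a pseudocount (50), an SD level of 0.5, quantile normalization, median centring, averaging all probe sets of a gene, using probe sets specific to 1 gene, and each array left out in turn. The 4-fold distance, the SD and the gap over the range were tried on simulated data with 1 equal spread for all genes. Real genes differ in spread by signal, so this gives no error rate for the counts here. Python 3.11.15, pandas 2.3.3 and matplotlib 3.10.9 were used.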

Additional observations from a re-analysis of the deposited data

Results flagged for a closer look

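In some gene lists and genes, 1 mouse lay far from the other 3, with a gap to the nearest mouse that made up most of the range of the 4. By chance this marks about 1 in 20 groups. Of 43 list means 4 were marked. The skeletal muscle list in WT 1 had a gap of 0.887 of its range, and the lymph node stroma list in WT 1 one of 0.933. In WT 4 the Schwann cell list (0.896) and the lymphatic endothelium list (0.908) were marked, both low. The lymph node stroma list holds 5 measured genes, of which Glycam1 had the largest spread (2.43).

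Of the genes named in the text 26 of 198 were marked, and of the 13073 genes with a signal of at least 100 in at least 1 mouse 1102 were (8.43%), 805 of them in WT 4. The share of the range taken by the gap is given for each. In WT 4 these were Ankrd1 (0.863), Cxcl10 (0.947), Eef1a1 (0.904), Fabp3 (0.959), Fabp4 (0.940), Jph3 (0.876), Lin7b (0.921), Lipe (0.870), Mbp (0.900), Myl4 (0.924), Nppa (0.986), Pln (0.938), Prph (0.863), Ptprb (0.852), Slc6a2 (0.902), Snph (0.983), Sox10 (0.917), Tm4sf4 (0.980) and Ttc9b (0.945). Nppa, Myl4, Pln, Ankrd1, Fabp3, Fabp4, Lipe and Eef1a1 were high there and the others low. In WT 1 they were Acta1 (0.960), Ms4a1 (0.849), Myh1 (0.861) and Optc (0.834), of which Optc was low. In WT 2 they were Camp (0.889) and Chil3 (0.850), Camp high and Chil3 low, both below a signal of 100 in all mice. In WT 3 it was Tmem144 (0.861), low. The cause of these single values was not tested.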

How the results depend on the processing

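Of 210 values recomputed under the alternatives for 22 results, 194 stayed close to the value given. Close was a wide limit, a set factor for counts and the median spread and an SD between mice or pairs for the others. The SD of a list includes the mouse that deviates. The 1076 genes with 1 mouse apart at a signal level of 50, against 720 as given, counted as close. So did the liver deviation of WT 2, at -4.58 as given, -3.50 without WT 1 and -5.94 without WT 4. A change of sign was looked for in the list deviations only. The 11 lists with a mouse at least 2-fold from the others were picked by these same values. They kept the direction of that mouse in all 99 recomputations. These reuse the same arrays and never leave out the deviating mouse, so the kept direction is no independent support. A pseudocount of 50 lowered the genes with a spread over 1 to 475 and those with 1 mouse at least 4-fold apart to 416, and the deviation of WT 1 in the lymph node stroma list to 0.75. A signal level of 50 raised the genes with a spread over 1 to 1588, and a spread level of 0.5 counted 2552. The gut epithelium list in WT 3 deviated by 1.37 on the log2 scale as given, by 0.49 with a floor of 16 and by 0.25 with the pseudocount. Most of its signals lie near the bottom of the scale, with 3 of its 5 genes below 100 in every mouse. Lgals4 alone reached 100 in all mice (492, 465, 465 and 471). When all probe sets of a gene were averaged instead of taking the brightest, the percentiles were 97.8 for Myh11, 99.4 for Acta2, 99.98 for Adipoq, 92.9 for Pecam1 and 99.3 for Dcn. With only probe sets specific to 1 gene, Acta2 fell to the 78.6th percentile, as its bright probe set, which is shared with other transcripts by its name, was left out. Leaving out each mouse in turn gave 448 to 1071 genes with a spread over 1 and 349 to 756 with 1 mouse apart, both lowest without WT 4 and with the signal level then read in the remaining mice, 11114 to 11467 genes at or above 100 in all remaining mice, a median spread of 0.14 to 0.22, and a highest pair correlation of 0.89 to 0.95, lowest without WT 3. No paired analysis was possible because 1 group was described and no groups were compared. Low signals limit what can be said of genes below 100, whose spread is wide.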

Other observations

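The heat shock genes, chaperones of all cells, were bright in every mouse. All 7 measured were at or above 100 in all mice, beside 60.6% of all genes, and their list mean spread by 0.36 on the log2 scale. Within the list, Hspa8 read 22762, 29411, 25947 and 15679 in WT 1 to WT 4 and Hsp90aa1 10071, 12548, 13692 and 7243, both lowest in WT 4, although WT 1 had the lowest list mean. Hspb1, a small heat shock protein of muscle and other cells, varied little (9027, 10352, 9518 and 10087).

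Fabp2, the fatty acid binding protein of the gut epithelium, read 192, 1.62, 61.99 and 2.32, above 100 in WT 1 alone, whereas Vil1, which defines that epithelium, read 3.99, 4.72, 39.4 and 7.72 and was highest in WT 3. Alas2, the first enzyme of haem synthesis in red cell precursors, read 810.2, 355, 511 and 284, highest in WT 1. Cox6a2, a subunit of cytochrome c oxidase in striated muscle, read 941, 128, 105 and 3783, higher in WT 1 and WT 4 than in the others, as were Mb (2002, 67.9, 152 and 9247) and Ttn (2433, 25.5, 16.4 and 4501). Krt8, a keratin shared by mesothelium, liver and other epithelia, was highest in WT 1 (796, 197, 312 and 287), and Upk3b of the mesothelium in WT 4 (255, 591, 460.2 and 1074).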
